A study of Mus musculus with 16 samples.

Results

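The 10 genes described here act inside mitochondria as folding helpers or as proteases: Hspd1, Hspe1, Hspa9, Dnaja3, Trap1, Lonp1, Clpp, Clpx, Yme1l1 and Oma1. They were chosen by name as genes of the mitochondrial unfolded protein response and looked up by symbol in the deposited count table. All 10 of 10 were found among 15571 genes, and all 10 passed the filter on low counts that left 14985 genes for testing. RNA was sequenced from mouse CD4 T cells grown for 3 days under conditions that favour Th17 cells, the helper T cells that make interleukin-17. Naive CD4 T cells were sorted on magnetic beads from spleen and lymph nodes of PDHfl/fl mice, the wild type (WT), or PDHfl/fl CD4 Cre+ mice, the knockout (KO), where PDH is pyruvate dehydrogenase, the enzyme that turns pyruvate into mitochondrial acetyl-CoA. Each genotype was grown without addition or with sodium acetate at 10 mM during the differentiation, which gave 4 groups of 4 libraries, named WT or KO and untreated or acetate.

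Both genotypes carried the floxed alleles, and the WT mice carried no Cre. Cre was driven by the CD4 promoter, which is active in developing T cells. No group received Cre without floxed alleles or sodium without acetate, so effects of Cre and of sodium cannot be told apart from those of the deletion and of acetate. The titles write PHD where the protocols write PDH. Which PDH gene was floxed, the age of the mice and whether libraries of a group came from separate animals are details not given in the sources used here, and p-values therefore measure only the spread between these libraries, which may be technical. In bulk RNA, fewer cells that use a gene and less RNA of it per cell cannot be told apart.

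Library totals ran from 24.57 to 33.72 M estimated counts. Pdha1, which encodes a subunit of pyruvate dehydrogenase, was at 234 to 263 CPM (counts scaled to a common library size) in WT untreated and 210 to 236 CPM in KO untreated, with an adjusted p of 0.0761, so its level gives no check of the genotype labels. Summed levels of 9 T cell and Th17 markers, all 9 of which were in the table, were 1697 to 2091 CPM in WT untreated, 1419 to 1657 in KO untreated, 2125 to 2912 in WT acetate and 2344 to 3518 in KO acetate. Of 5 CD8 and cytotoxic markers 3 were in the table, and their sum was 10.9 to 13.9 CPM in WT untreated, 7.42 to 9.75 in KO untreated, 19.3 to 25.9 in WT acetate and 18.9 to 26.8 in KO acetate. Both sums differed between the groups, and their part in the results below was not tested. Within the first sum, Il17a had a mean of 135 CPM in WT untreated and 868 in KO acetate, and Il17f 505 and 1117. In KO acetate against WT untreated 3 of the 9 markers were higher and 4 lower at an adjusted p under 0.05 in edgeR. Over all genes 12.9% were higher and 13.5% lower there. The 4 lower markers were Cd3d, Cd3e, Trac and Cd4, so the sum does not stand for each marker. The summed NK (1 of 4 in the table), B cell (5 of 5) and myeloid (3 of 6) markers reached at most 8.19, 5.64 and 5.36 CPM in any library. In 4 libraries (KO acetate 2, the first WT untreated library and both KO untreated 1 and 2) a single unnamed gene held 3.27% to 9.14% of the counts. Each count of members is therefore also given without these 4 libraries.

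Proteins imported into the mitochondrial matrix arrive unfolded. The motor protein mtHSP70 (Hspa9) pulls them in and hands some of them to the chaperonin made of HSP60 (Hspd1) and its lid HSP10 (Hspe1), while LONP1 and the ClpXP protease degrade proteins that fail to fold. In the inner membrane YME1L1 and OMA1 cut proteins of that membrane, among them OPA1, whose cleavage sets the balance of mitochondrial fusion and division. When matrix proteins misfold or respiration fails, mammalian cells can raise chaperone and protease genes, and they can also activate the transcription factors ATF4, ATF5 and CHOP (Ddit3) through the integrated stress response, with OMA1 cutting DELE1 as a known relay to the cytosol.

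Levels are first compared between the genes per length, as CPM per kilobase of the principal transcript in GENCODE release 21 of GRCm38. In WT untreated cells Hspd1 was the most abundant at 500 ± 7.84 CPM per kilobase (SD, n = 4), followed by Hspe1 at 342 ± 18.1 and Hspa9 at 279.7 ± 2.03. Trap1 followed at 63.7 ± 2.84, and Lonp1 at 49.9 ± 1.21, Clpp at 46.9 ± 2.48 and Yme1l1 at 45.7 ± 1.90 came next. Lower still were Dnaja3 at 27.1 ± 1.07, Clpx at 14.3 ± 0.732 and Oma1 at 8.09 ± 0.384. In WT untreated the 3 core chaperones thus stood far above every protease, and no library of one core chaperone overlapped those of another. Among the neighbours in this order, Lonp1 (49.1 to 51.7) and Clpp (44.0 to 49.6) overlapped, as did Clpp and Yme1l1 (44.1 to 47.7), so neither pair was separated beyond its spread. In KO untreated cells Lonp1 stood above both, with Lonp1 at 69.4 ± 14.3, Yme1l1 at 39.8 ± 1.85 and Clpp at 36.2 ± 2.14 CPM per kilobase. Hspa9 (327 to 352) stood above Hspe1 (273 to 313) in KO untreated. These chaperones overlapped in KO acetate, at 326 to 409 and 364 to 395.

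**Figure D1:**
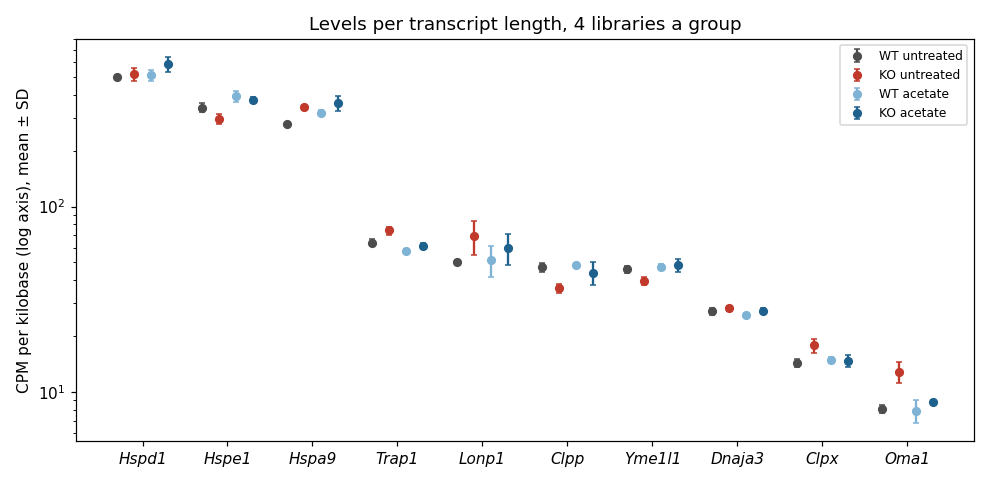
Level of each gene in CPM per kilobase of transcript (log axis), with the mean of 4 libraries as a point, the SD as a bar and the 4 groups in separate colours. Hspd1, Hspe1 and Hspa9 form the top of the plot, from 279.7 upward, and Oma1 is the lowest gene in all 4 groups.

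The comparison of untreated KO with untreated WT cells asks how these genes stand in T cells of the KO genotype. Of the 10 genes, 8 changed: Oma1, Lonp1, Clpx, Hspa9 and Trap1 were higher and Clpp, Hspe1 and Yme1l1 were lower in KO untreated, at an adjusted p under 0.05 in edgeR's quasi-likelihood test with Benjamini-Hochberg adjustment over all genes tested. Over all genes 36.6% were called in this comparison, 18.0% higher and 18.6% lower. The median log2 fold change was 0.14 over the 10 genes and 0.01 over all genes. In the same 8 genes the CPM of the KO and WT libraries did not overlap, which held for 36.0% of all genes. Partners differed in their calls: Clpx rose while Clpp fell, Oma1 rose while Yme1l1 fell, and Hspe1 fell while Hspd1 was not called. Differences between partners were not tested. Without the 4 libraries with the abundant unnamed gene 5 were called, 4 higher and 1 lower. The calls of Hspe1, Yme1l1 and Lonp1 were lost there, with fewer libraries in both groups. With that gene alone removed and all 16 libraries kept, 8 were called, 5 higher and 3 lower. Without TMM scaling 6 were called, 3 higher and 3 lower.

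**Figure D2:**
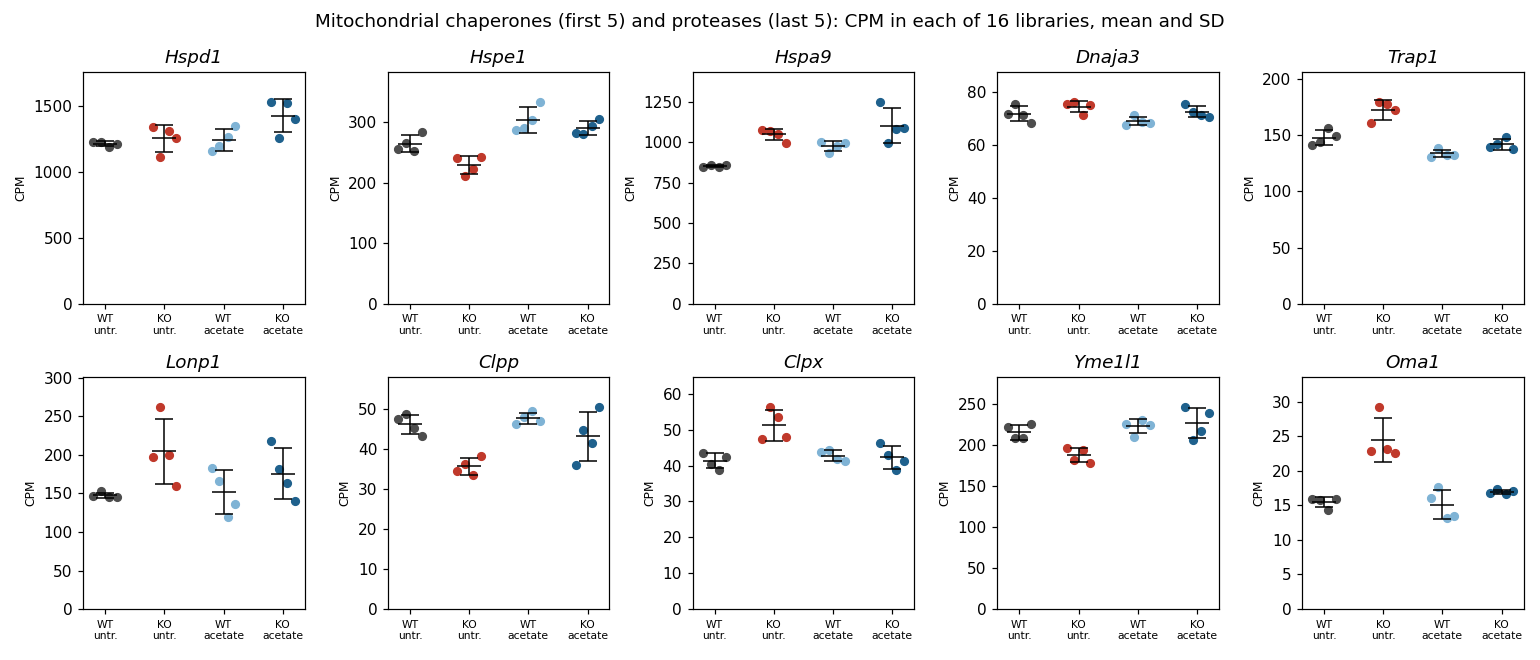
CPM of the 10 genes in each of the 16 libraries, 1 panel per gene with its own axis, with bars for the mean and SD of each group of 4. Oma1 in KO untreated sits at 22.6 to 29.2 CPM, above every library of the other 3 groups (13.2 to 17.7).

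**Figure D3:**
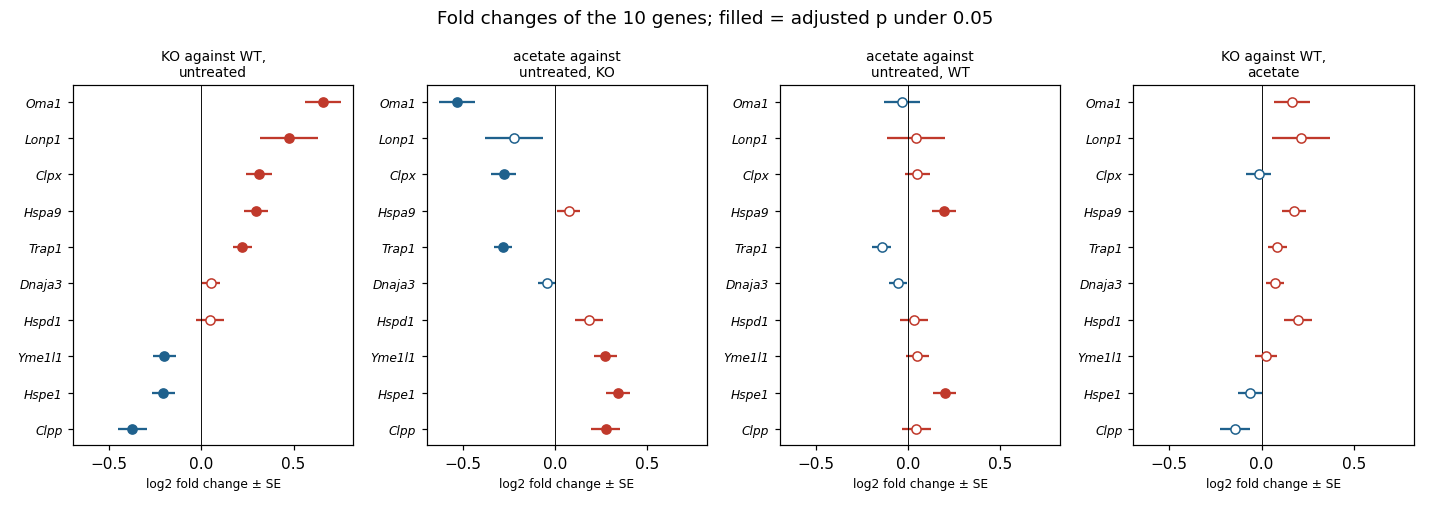
Log2 fold change with its standard error for the 10 genes in 4 comparisons, where filled points passed an adjusted p of 0.05. In KO against WT untreated 8 points are filled, and in KO acetate against WT acetate none is.

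Hspd1, the barrel of the chaperonin, was at 1227, 1227, 1188 and 1206 CPM in WT untreated and at 1340, 1109, 1310 and 1252 CPM in KO untreated, so the groups overlapped and the log2 fold change of 0.05 (SE 0.08) was not called (adjusted p = 0.658). Hspe1, its lid, was at 257, 266, 253 and 284 CPM in WT untreated and at 240.5, 211, 223 and 243 CPM in KO untreated. Every KO library lay below every WT library, and Hspe1 fell by 0.21 on the log2 scale (SE 0.06, adjusted p = 0.0159). This call was lost without WT untreated 4 (fell by 0.17, adjusted p = 0.0559), without KO untreated 2 (fell by 0.17, adjusted p = 0.0694), without KO untreated 3 (fell by 0.19, adjusted p = 0.0549) and without the 4 libraries with the abundant unnamed gene (fell by 0.20, adjusted p = 0.0978).

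The 2 genes lie head to head on chromosome 1 of GRCm38, Hspd1 on the minus strand at chr1:55077835-55088243 and Hspe1 on the plus strand at chr1:55088132-55091307, and their annotated ends overlap by 112 bases. The library kit was stranded, while the strand setting of the counting is not stated. Processed pseudogenes of Hspd1, Hspe1 and Hspa9 are annotated, and the estimates may have divided reads among such copies. The window around the start of Hspe1 (250 bases before to 50 after, RefSeq GRCm38.p6, plus strand, chr1:55087898-55088197) shares 285 bases with 1 of the 2 RefSeq windows of Hspd1, and 4 bases with the other. It is printed because both partners of the chaperonin have it near a start. Capitals mark overlapping matches to TTCNNGAA and GAANNTTC, which are arrangements of the heat shock element unit read on both strands.
Hspe1: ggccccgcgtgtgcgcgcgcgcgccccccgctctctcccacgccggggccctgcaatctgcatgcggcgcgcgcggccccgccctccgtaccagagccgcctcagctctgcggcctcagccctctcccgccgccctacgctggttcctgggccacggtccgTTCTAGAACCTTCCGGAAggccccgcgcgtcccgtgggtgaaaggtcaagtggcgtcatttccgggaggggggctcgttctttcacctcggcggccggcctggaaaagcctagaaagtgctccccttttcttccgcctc

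The run in capitals holds TTCTAGAA starting 89 bases before the Hspe1 start, GAACCTTC starting 84 before and TTCCGGAA starting 79 before. Of all 32851 windows of this length in the RefSeq table, 8.52% hold TTCNNGAA and 7.86% hold GAANNTTC. A match is a description of the letters and does not show that a factor bound there. Heat shock element units are read by heat shock factors such as HSF1, and the expression of Hsf1 itself is given with the regulators below. Hspa9 is not in the table of windows.

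Among the mtHSP70 machinery, Hspa9 rose. Its level was 848, 860.0, 848 and 856 CPM in WT untreated and 1074, 1067, 1052 and 998 CPM in KO untreated. The 4 KO libraries all lay above the narrow WT range, and the log2 fold change was 0.30 (SE 0.06, adjusted p = 0.00148), or 1.23-fold. Dnaja3, a J-domain protein that stimulates mtHSP70, was at 72.0, 75.4, 71.6 and 68.5 CPM in WT untreated and at 75.5, 76.3, 71.4 and 75.2 CPM in KO untreated. The groups overlapped and the log2 fold change of 0.05 (SE 0.05) was not called (adjusted p = 0.411). Across all 4 groups Dnaja3 had the smallest range of group means of the 10 genes, 0.11 on the log2 scale.

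Trap1, the mitochondrial member of the HSP90 family, rose as well. It was at 141, 144, 156 and 149 CPM in WT untreated and at 160.4, 179, 178 and 172 CPM in KO untreated. The lowest KO library stood just above the highest WT library, and the log2 fold change was 0.22 (SE 0.05, adjusted p = 0.00235). Without TMM scaling it was 0.17 and not called (adjusted p = 0.098).

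The matrix proteases moved apart. Lonp1, the ATP-driven matrix protease that also clears oxidised proteins, was at 147, 153, 145 and 145 CPM in WT untreated and at 198, 262, 200 and 160 CPM in KO untreated. All 4 KO libraries were above the WT range, but they spread from 160 to 262 CPM, and the log2 fold change was 0.47 (SE 0.16, adjusted p = 0.0291). The highest library, KO untreated 2, is among those with the abundant unnamed gene. The Lonp1 call was lost without KO untreated 2 (0.34, adjusted p = 0.0925), without any 1 WT untreated library (0.46 to 0.49), without the 4 libraries with the abundant unnamed gene (0.28, adjusted p = 0.355) and without scaling (0.42, adjusted p = 0.074).

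ClpXP is built from CLPX, the ATPase ring that unfolds substrates, and CLPP, the chamber that cuts them. Clpx was at 43.6, 40.4, 38.9 and 42.5 CPM in WT untreated and at 47.5, 56.2, 53.6 and 47.9 CPM in KO untreated, with no overlap, and rose by 0.31 on the log2 scale (SE 0.07, adjusted p = 0.00161). Clpp was at 47.5, 48.7, 45.1 and 43.3 CPM in WT untreated and at 34.6, 36.3, 33.4 and 38.2 CPM in KO untreated, again with no overlap, and fell by 0.37 on the log2 scale (SE 0.08, adjusted p = 0.00143). The RNA of the ring and of the chamber thus changed in opposite directions. Both calls held without the 4 libraries with the abundant unnamed gene and without scaling.

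The windows around the starts of these 3 protease genes are shown because the genes changed in different directions, from RefSeq GRCm38.p6: Lonp1 at chr17:56626854-56627153 on the minus strand, Clpx at chr9:65294010-65294309 on the plus strand and Clpp at chr17:56990014-56990313 on the plus strand. Capitals mark an E-box, CACGTG, in Lonp1, a CCAAT box on the opposite strand, ATTGG, in Clpx and a TTCNNGAA match in Clpp.
Lonp1: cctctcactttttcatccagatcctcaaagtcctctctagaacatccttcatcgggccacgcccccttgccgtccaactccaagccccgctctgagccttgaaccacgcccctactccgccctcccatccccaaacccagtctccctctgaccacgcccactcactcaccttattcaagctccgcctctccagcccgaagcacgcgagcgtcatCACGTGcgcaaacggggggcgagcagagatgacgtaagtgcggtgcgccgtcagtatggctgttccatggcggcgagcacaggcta
Clpx: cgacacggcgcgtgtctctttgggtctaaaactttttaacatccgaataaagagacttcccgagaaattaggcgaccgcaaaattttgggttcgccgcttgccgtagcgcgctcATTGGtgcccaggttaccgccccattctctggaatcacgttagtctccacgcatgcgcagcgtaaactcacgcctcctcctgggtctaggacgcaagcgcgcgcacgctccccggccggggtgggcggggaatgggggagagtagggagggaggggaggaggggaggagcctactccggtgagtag
Clpp: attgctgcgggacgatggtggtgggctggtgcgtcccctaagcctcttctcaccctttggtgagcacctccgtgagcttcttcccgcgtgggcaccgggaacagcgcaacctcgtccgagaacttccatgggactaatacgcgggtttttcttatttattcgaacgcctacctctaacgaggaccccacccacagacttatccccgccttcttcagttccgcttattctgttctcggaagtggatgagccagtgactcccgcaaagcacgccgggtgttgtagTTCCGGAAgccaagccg

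The E-box of Lonp1 begins 36 bases before the start, the CCAAT box of Clpx 136 bases before, and the match in Clpp lies after the start, at base 34. Of all windows 7.15% hold CACGTG and 37.4% hold CCAAT on either strand. The composite element that pairs an ATF4 and a CHOP site was searched as TGATGNAA on both strands. It is in 3.97% of all windows and in none of the 10 windows of the 9 matched genes. No match says only that these letters are absent from this stretch.

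The inner membrane pair showed the widest separation. Oma1, a metalloprotease that is held inactive until the membrane is stressed, was at 15.95, 15.8, 14.4 and 15.8 CPM in WT untreated and at 22.8, 29.2, 23.1 and 22.6 CPM in KO untreated. The groups were far apart, and Oma1 rose by 0.66 on the log2 scale (SE 0.10, adjusted p = 4.91e-05), or 1.58-fold, more than any other of the 10 genes. Yme1l1, an ATP-driven protease facing the intermembrane space, was at 221, 208, 208 and 225 CPM in WT untreated and at 195, 181, 194 and 178 CPM in KO untreated. Every KO library was below every WT library, and Yme1l1 fell by 0.20 on the log2 scale (SE 0.06, adjusted p = 0.0159). The Yme1l1 call was lost without KO untreated 2 (adjusted p = 0.0514), without KO untreated 4 (adjusted p = 0.0512) and without the 4 libraries with the abundant unnamed gene (adjusted p = 0.08), where it fell by 0.18, 0.18 and 0.20.

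The Oma1 window is shown because this gene changed most, at chr4:103313596-103313895 on the plus strand of GRCm38.p6. Capitals mark a match to the motif read by nuclear respiratory factor NRF1, which begins 23 bases before the start and is in 4.6% of all windows.
Oma1: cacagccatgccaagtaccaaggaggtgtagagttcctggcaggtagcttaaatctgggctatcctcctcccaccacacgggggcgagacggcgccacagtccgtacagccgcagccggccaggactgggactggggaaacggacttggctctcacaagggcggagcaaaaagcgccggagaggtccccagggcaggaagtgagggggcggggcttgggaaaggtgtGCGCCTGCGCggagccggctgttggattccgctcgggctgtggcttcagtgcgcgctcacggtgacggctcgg

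All of the printed windows are rich in G and C, from 57.3% in Clpp and 60.0% in Clpx to 61.0% in Lonp1, 65.7% in Oma1 and 71.0% in Hspe1, against a median of 52.7% over all windows. Of the windows not printed, the second of Hspd1 (chr1:55088194-55088493, minus strand) holds a CCAAT box, an E-box and an NRF1 motif, the Yme1l1 window holds a CCAAT box, the Dnaja3 window a CCAAT box and a pair of NRF1 motifs, and the Trap1 window none of the 6 motifs searched.

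The acetate cultures of KO cells ask what acetate, a source of acetyl-CoA that does not need pyruvate dehydrogenase, did to these genes in KO cells. Of the 10 genes 6 changed: Hspe1, Clpp and Yme1l1 were higher and Oma1, Trap1 and Clpx were lower with acetate. Over all genes 43.7% were called, 22.1% higher and 21.6% lower, and the median log2 fold change was 0.02 over the 10 genes and -0.01 over all genes. In 5 of the 10 genes the groups did not overlap in CPM, as in 37.7% of all genes, and Clpp was the called gene that overlapped. This comparison shares its KO untreated libraries with the one above. Without the 4 libraries with the abundant unnamed gene 5 were called, and without scaling 5 were called, 4 higher and 1 lower. The median log2 fold change over all genes in this comparison was 0.09 without scaling.

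In KO acetate Oma1 was at 16.8, 17.3, 16.7 and 17.04 CPM, below all 4 KO untreated libraries, and fell by 0.53 on the log2 scale (SE 0.10, adjusted p = 0.000236). Trap1 was at 139.7, 142, 148 and 137 CPM, also below every KO untreated library, and fell by 0.28 (SE 0.05, adjusted p = 0.00021). Clpx was at 46.4, 42.9, 38.8 and 41.4 CPM and fell by 0.28 (SE 0.07, adjusted p = 0.00286). The acetate libraries of all 3 genes lay below the lowest KO untreated library. Without scaling the Clpx and Trap1 calls were lost, with adjusted p of 0.104 and 0.0638.

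Among the genes that rose with acetate in KO cells, Hspe1 was at 283, 281, 294 and 306 CPM, above every KO untreated library, and rose by 0.34 on the log2 scale (SE 0.06, adjusted p = 0.000243). Yme1l1 was at 245, 205, 217 and 239 CPM, again above every KO untreated library, and rose by 0.27 (SE 0.06, adjusted p = 0.0014). Clpp was at 35.9, 44.7, 41.4 and 50.4 CPM and rose by 0.28 (SE 0.08, adjusted p = 0.00969). Its library KO acetate 1 lay within the KO untreated range, and without the 4 libraries with the abundant unnamed gene the Clpp call was lost (0.24, adjusted p = 0.125).

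The other 4 genes were not called between KO acetate and KO untreated. Hspd1 was at 1526, 1255, 1516 and 1396 CPM in KO acetate, 0.18 above KO untreated on the log2 scale (adjusted p = 0.0554). That value passed the threshold in DESeq2 (adjusted p = 0.0307), without scaling (0.29, adjusted p = 0.0118), without the unnamed gene (adjusted p = 0.0441) and without KO acetate 2 (0.23, adjusted p = 0.0177). Hspa9 was at 1248, 994.5, 1084 and 1086 CPM (log2 fold change 0.07, adjusted p = 0.372). Lonp1 was at 218, 182, 163 and 140.5 CPM, which overlapped KO untreated (-0.22, SE 0.16, adjusted p = 0.285), and Dnaja3 was at 75.5, 72.7, 71.4 and 70.7 CPM (-0.04, adjusted p = 0.543). In all 4 KO acetate libraries Hspa9 stood above the WT untreated range.

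In WT cells acetate moved fewer of the genes. Hspe1 and Hspa9 were higher and none was lower in WT acetate against WT untreated, where 15.4% of all genes were called, 7.89% higher and 7.55% lower. The median log2 fold change was 0.04 over the 10 genes and 0.00 over all genes. Hspe1 was at 287, 291, 303 and 334 CPM in WT acetate, above every WT untreated library, and rose by 0.20 on the log2 scale (SE 0.06, adjusted p = 0.0412). Hspa9 was at 1003, 935, 977 and 992 CPM, also above every WT untreated library, and rose by 0.20 (SE 0.06, adjusted p = 0.0458). Both calls lie near the threshold. Hspa9 lost its call when any 1 of the 8 libraries was left out (0.18 to 0.22), Hspe1 lost it without WT untreated 1, 2 or 3 or WT acetate 3 or 4 (0.15 to 0.20), and neither was called without the libraries with the abundant unnamed gene.

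Trap1 was the third gene without overlap in this comparison, which 21.3% of all genes showed. It was at 131, 139, 133 and 132.5 CPM in WT acetate, below every WT untreated library, and its log2 fold change of -0.14 was not called (adjusted p = 0.0656). DESeq2 gave it an adjusted p of 0.023. The remaining 7 genes had log2 fold changes between -0.06 and 0.05. In WT acetate Lonp1 ranged from 120.1 to 184 CPM and Oma1 from 13.2 to 17.7 CPM, wider than the 145 to 153 CPM and 14.4 to 15.95 CPM of WT untreated.

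With acetate in both genotypes, none of the 10 genes was called between KO acetate and WT acetate, by edgeR, by DESeq2 or by limma's voom, and 1.00% of all genes were called by edgeR, 0.487% higher and 0.514% lower. At an unadjusted p under 0.05 in edgeR were Hspd1 and Hspa9, 2 of the 10, against 18.4% of all genes. No gene of the 10 had libraries without overlap, which 9.36% of all genes showed. The log2 fold changes ran from -0.14 for Clpp to 0.21 for Lonp1, with 0.20 for Hspd1 (adjusted p = 0.166) and 0.18 for Hspa9 (adjusted p = 0.152), and their median was 0.08. Without the libraries with the abundant unnamed gene the count was also 0. These values miss the threshold, which does not show that the genotypes were alike under acetate.

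Against WT untreated, KO acetate cells had more Hspa9 and Hspd1. Hspa9 was higher by 0.37 on the log2 scale (SE 0.06, adjusted p = 0.00045) and Hspd1 by 0.23 (SE 0.08, adjusted p = 0.0296), in a comparison that called 26.4% of all genes, 12.9% higher and 13.5% lower. The libraries of Hspd1, Hspa9 and Oma1 did not overlap, which 28.4% of all genes showed, with Oma1 at 16.7 to 17.3 CPM just above the 14.4 to 15.95 CPM of WT untreated and not called. The Hspd1 call was lost without any 1 WT untreated library (0.22 to 0.24) and without KO acetate 1 or KO acetate 3 (0.20 each), while both genes were called without the libraries with the abundant unnamed gene. The group mean of Hspd1 in KO acetate was 1423 ± 127 CPM against 1212 ± 19.0 to 1253 ± 102 in the other 3 groups.

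Whether acetate acted differently in the genotypes was tested by the interaction, the acetate difference in KO minus that in WT. Oma1 (-0.49, SE 0.14, adjusted p = 0.0261) and Clpx (-0.33, SE 0.10, adjusted p = 0.0333) were called lower, and none was called higher, while 11.9% of all genes were called, 6.37% higher and 5.54% lower. Oma1 and Clpx fell with acetate in KO cells, and their acetate differences in WT cells were within -0.06 to 0.05 and not called. The Oma1 call was lost without WT untreated 3, WT acetate 2 or KO acetate 3 (-0.48 to -0.41), and the Clpx call without WT untreated 2 or 3, KO untreated 2 or 3, WT acetate 1 or 2 or KO acetate 3 (-0.32 to -0.29). Neither was called without scaling, at -0.44 (adjusted p = 0.0807) for Oma1 and -0.27 (adjusted p = 0.165) for Clpx, or without the 4 libraries with the abundant unnamed gene, at -0.42 (adjusted p = 0.11) and -0.34 (adjusted p = 0.0794). The next value was that of Yme1l1, 0.23 (adjusted p = 0.101), and Lonp1 was at -0.26 (adjusted p = 0.500).

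Ratios between partners within a library do not depend on library scaling, and 3 were chosen after the values were seen and are given per transcript length as a description. Clpx against Clpp was 0.282 to 0.335 in WT untreated and 0.427 to 0.548 in KO untreated, with 0.289 to 0.324 in WT acetate and 0.2798 to 0.439 in KO acetate. KO untreated stood above both WT groups. Only KO acetate 1 (0.439) reached the KO untreated range, and the other KO acetate libraries were at 0.2798 to 0.327. Oma1 against Yme1l1 was 0.171 to 0.187 in WT untreated, 0.287 to 0.395 in KO untreated, 0.141 to 0.207 in WT acetate and 0.168 to 0.207 in KO acetate, so that KO untreated stood above all other libraries. Hspd1 against Hspe1 was 1.36 to 1.53 in WT untreated, 1.65 to 1.87 in KO untreated, 1.29 to 1.33 in WT acetate and 1.43 to 1.72 in KO acetate. The chaperonin RNAs were thus nearest to each other in WT acetate, below the libraries of every other group. By group mean they were furthest apart in KO untreated, whose libraries overlapped those of KO acetate.

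**Figure D4:**
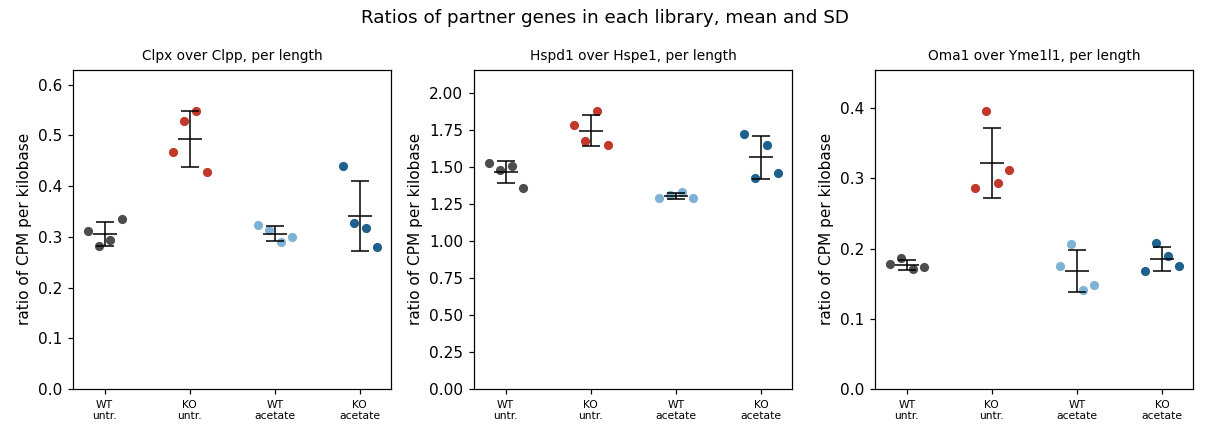
Ratio of CPM per kilobase between partners (Clpx to Clpp, Hspd1 to Hspe1, Oma1 to Yme1l1) in each of the 16 libraries, by group, with bars for the mean and SD. KO untreated libraries lie highest in Oma1 to Yme1l1, at 0.287 to 0.395.

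The regulators that respond to mitochondrial stress were listed next. Of 13 listed, 5 rose and 2 fell in KO against WT untreated (median log2 fold change 0.07), and 2 rose and 5 fell in KO acetate against KO untreated (median -0.11). Among all genes, 18.0% rose and 18.6% fell in the first comparison, and 22.1% and 21.6% in the second. Atf4, the main transcription factor of the integrated stress response, was at 292 ± 8.31 CPM in WT untreated, 570.3 ± 35.5 in KO untreated, 292 ± 51.8 in WT acetate and 359 ± 44.6 in KO acetate. Its relative Atf5, which can enter mitochondria, went from 14.9 ± 0.925 to 50.9 ± 5.63 CPM in untreated cells and was at 13.6 ± 2.27 CPM in KO acetate. Ddit3, which encodes CHOP, went from 8.64 ± 0.642 to 36.8 ± 12.7 CPM and was at 13.6 ± 5.50 CPM in KO acetate. Each of these 3 rose in KO untreated and fell with acetate in KO cells. Atf5 also fell with acetate in WT cells, to 11.6 ± 1.55 CPM (-0.36, adjusted p = 0.0431 in edgeR). Atf4 and Ddit3 were not called there (adjusted p = 0.989 and 0.933). The interaction was called for Atf4 (-0.67) and Atf5 (-1.55), and not for Ddit3 (-1.37, adjusted p = 0.086).

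Cebpb, a leucine zipper factor that pairs with this family, rose by 1.00 on the log2 scale in KO untreated (adjusted p = 0.000195) and fell by 1.21 with acetate in KO cells. Hsf1, the main heat shock factor, rose by 0.27 (adjusted p = 0.0338) and fell by 0.41. Eif2ak1, the HRI kinase that DELE1 activates, and Ubl5, a ubiquitin-like protein, fell in KO untreated, by 0.21 (adjusted p = 0.0304) and 0.33 (adjusted p = 0.0121). Hsf1, Eif2ak1 and Ubl5 were singled out after their values were seen. Without the 4 libraries with the abundant unnamed gene 4 regulators rose and none fell, and without scaling the split in KO acetate against KO untreated became 5 higher and 5 lower.

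Of 10 substrates of OMA1 and YME1L1 and genes of mitochondrial dynamics, 2 rose and 4 fell in KO untreated (median -0.07). With acetate in KO cells 2 rose and 2 fell (median -0.15). Over all genes 18.0% rose and 18.6% fell in the first comparison, and 22.1% and 21.6% in the second. Dele1, the OMA1 substrate that relays stress to the cytosol, was at 32.0 ± 1.74 CPM in WT untreated and 49.3 ± 5.32 in KO untreated, and at 26.6 ± 1.89 and 29.3 ± 2.26 CPM with acetate. It rose by 0.63 on the log2 scale in KO untreated (adjusted p = 1.02e-05), and its interaction of -0.49 was called (adjusted p = 0.00871), as that of Oma1 was. With acetate Dele1 fell by 0.75 in KO cells and by 0.26 in WT cells (adjusted p = 0.0327 in WT). Opa1, the fusion protein both proteases cut, was at 107 ± 9.16 and 98.6 ± 6.86 CPM in the untreated groups and was not called (-0.12, adjusted p = 0.187). Mfn1, a mitofusin of the outer membrane, fell from 34.7 ± 1.44 to 22.2 ± 1.23 CPM and was at 37.4 ± 2.97 CPM in KO acetate. Mfn2 fell by 0.31 (adjusted p = 0.00135), a call lost without the libraries with the abundant unnamed gene, where 1 gene of the list rose and 2 fell. Mtfp1, which promotes fission, rose by 1.40 with acetate in KO cells, to 8.52 ± 0.346 CPM. It also rose with acetate in WT cells, by 1.01 (adjusted p = 2.24e-05). The Mtfp1 interaction of 0.39 was not called (adjusted p = 0.149). Without scaling 1 rose and 4 fell in KO untreated, and 2 rose and 1 fell with acetate. DESeq2 called 2 higher and 5 lower with acetate in KO cells.

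**Figure D5:**
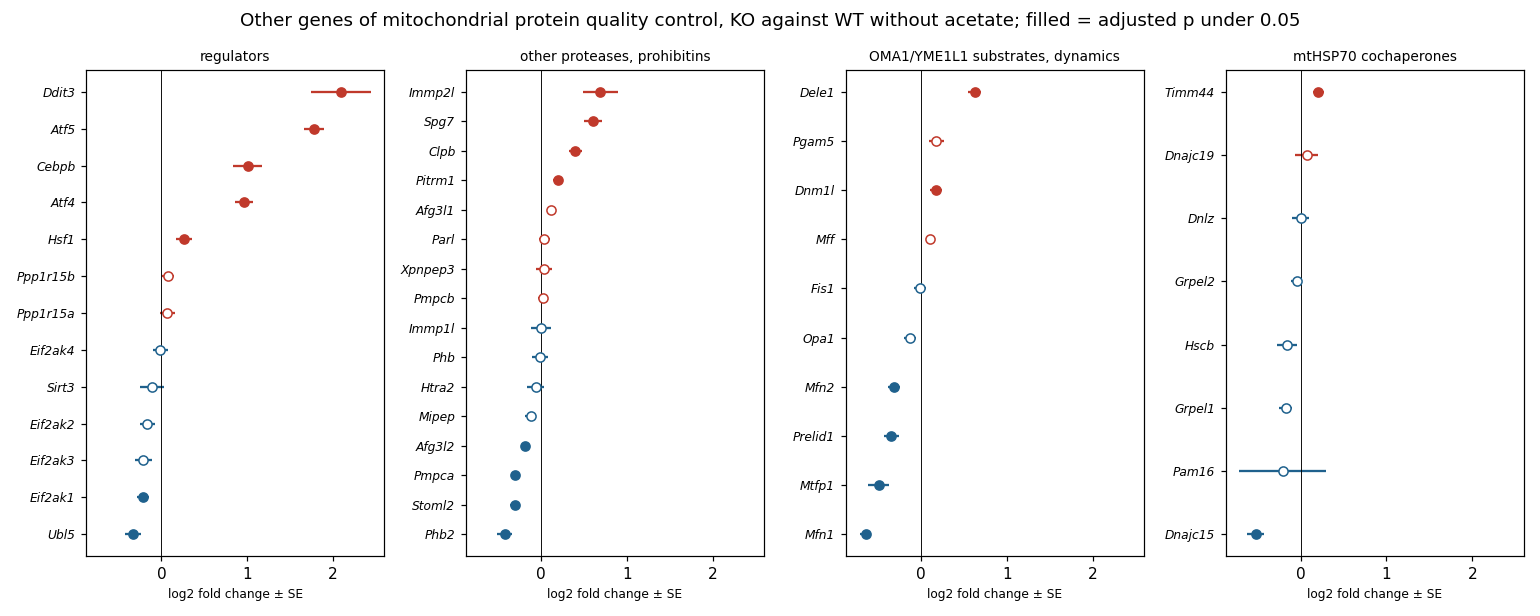
Log2 fold change with its standard error in KO against WT untreated for genes of 4 related lists, where filled points passed an adjusted p of 0.05. Ddit3, Atf5, Cebpb and Atf4 lie furthest to the right, and within each list filled points fall on both sides of 0.

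Of 16 other mitochondrial proteases and prohibitins, 4 rose and 4 fell in KO untreated (median 0.01). With acetate in KO cells 4 rose and 6 fell (median 0.01). The shares over all genes were 18.0% higher and 18.6% lower in the first comparison, and 22.1% and 21.6% in the second. Spg7 (paraplegin) and Afg3l2, partners in the matrix-facing inner membrane protease, moved apart: Spg7 went from 43.5 ± 2.54 to 66.2 ± 4.29 CPM (rose by 0.61, adjusted p = 0.000318) and Afg3l2 from 89.2 ± 3.01 to 78.0 ± 2.11 CPM (fell by 0.19, adjusted p = 0.00368). Clpb, a disaggregase of the intermembrane space, rose from 48.4 ± 2.92 to 63.8 ± 4.85 CPM and was at 45.9 ± 3.09 CPM in KO acetate. Pmpca, a subunit of the presequence peptidase, and Stoml2, a scaffold that holds YME1L1, fell by 0.30 each. Pitrm1, which degrades presequences, fell by 0.36 with acetate in KO cells. Htra2, an intermembrane space protease, was at 51.0 ± 1.55 and 48.7 ± 5.46 CPM in the untreated groups and not called (-0.07, adjusted p = 0.616). Without the 4 libraries with the abundant unnamed gene 3 rose and 2 fell in KO untreated, and without scaling 6 rose and 3 fell with acetate in KO cells.

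Among 8 cochaperones of mtHSP70 and parts of the import motor, 1 rose and 1 fell in KO untreated (median -0.10). With acetate in KO cells 2 rose and 1 fell (median 0.06). For these genes and the translocases below, the shares over all genes were 18.0% higher and 18.6% lower in KO untreated. They were 22.1% and 21.6% with acetate in KO cells. Timm44, which anchors mtHSP70 at the import channel, rose by 0.21 (adjusted p = 0.0144). That call was lost without WT untreated 2, without the libraries with the abundant unnamed gene (0.14) and without scaling (0.15, adjusted p = 0.166), where none rose and 2 fell. Dnajc15, a J-domain protein of the motor, fell from 40.8 ± 0.730 to 28.4 ± 4.21 CPM and rose by 0.42 with acetate in KO cells. Grpel2, a nucleotide exchange factor of mtHSP70, rose with acetate by 0.34 in KO cells and by 0.28 in WT cells, while Dnajc19 fell by 0.37 in KO cells. Of 17 TIM and TOM translocase genes, Timm17a and Timm17b fell in KO untreated, by 0.24 and 0.34, and none rose (median -0.07). With only the compared groups fitted 3 rose and 2 fell, and DESeq2 called 1 higher and 2 lower. With acetate in KO cells Tomm70a and Timm17a rose by 0.27 and 0.35 and 2 genes fell, among them Tomm6 by 0.38, and without scaling 1 fell. Tomm70a also rose with acetate in WT cells, by 0.18 (adjusted p = 0.0347).

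Relatives of these chaperones in other compartments were set beside them. Hspa8, the main cytosolic HSP70 and relative of Hspa9, was at 3855 ± 139 CPM in WT untreated and 3989 ± 505 in KO untreated and was not called (0.05, adjusted p = 0.754). Hspa5, the HSP70 of the endoplasmic reticulum, was at 528 ± 35.6 and 546 ± 55.7 CPM (0.05, adjusted p = 0.761). For the HSP90 relatives of Trap1, cytosolic Hsp90ab1 was at 4174 ± 244 and 4321 ± 297 CPM (0.05, adjusted p = 0.634), and reticular Hsp90b1 fell from 594 ± 46.3 to 428 ± 46.9 CPM (adjusted p = 0.000874) and rose by 0.36 with acetate in KO cells. Whether the relatives differ from the mitochondrial genes was not tested.

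Of 6 reticular relatives 4 fell in KO untreated and none rose (median -0.40), and 4 rose and none fell with acetate in KO cells (median 0.36). The 4 were Hsp90b1, Hyou1, Dnajb11 and Dnajc3 in the first comparison. The last 3 fell by 0.41, 0.52 and 0.40 on the log2 scale. Over all genes 18.0% rose and 18.6% fell in KO untreated, and 22.1% and 21.6% with acetate in KO cells. Of 16 cytosolic heat shock chaperones tested, 2 rose and 4 fell in KO untreated (median -0.15), and 8 rose and none fell with acetate in KO cells (median 0.20). Bag3, which links HSP70 to autophagy, fell by 0.59 in KO untreated and rose by 1.10 with acetate in KO cells. It also rose with acetate in WT cells, by 0.52 (adjusted p = 0.00233), and its interaction of 0.58 was called (adjusted p = 0.017). Hspa14 fell by 0.35 in KO untreated and rose by 0.33 with acetate in KO cells. Hspa1a, an inducible HSP70, rose from 1.00 ± 0.332 to 2.10 ± 0.380 CPM. Without scaling 1 cytosolic gene rose and 7 fell in KO untreated. Hspb1 was listed but was not analysed here.

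Genes whose pattern over the 16 libraries was nearest to that of Oma1 and Lonp1, which had the widest ranges of group means (0.69 and 0.45 on the log2 scale), were found by the root mean square difference of log2 CPM after centring each gene. Nearest to Oma1 among 14691 named genes were Atg12 (0.0959), Fbxl12 (0.0995), Phgdh (0.102), Acsf3 (0.103) and Aldh3a2 (0.104), against a median of 0.399 over all genes. Nearest to Lonp1 were Nfe2l1 (0.0795), Phf10 (0.0847), Gtpbp2 (0.0899), Mpp7 (0.0968) and Gars (0.1), against a median of 0.385. Likeness of pattern is a description over these libraries, which share the 4 groups.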

How the data were processed

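RNA was sequenced from 16 libraries of mouse Th17 cultures in 4 groups of 4. The table deposited by the authors holds estimated counts, rounded to whole numbers, by Ensembl identifier. The tools named in the submitters' processing notes are Salmon, DESeq and DESeq2, with no version. Genome build, annotation and rounding: not given in the sources used here. In the table each gene reached 10 counts in 3 or more libraries, and genes below that were not analysed here. Of 15571 identifiers 15221 had a symbol, and 350 did not. Library totals were 24.57 to 33.72 M.

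All 16 libraries were fitted together in R 4.3.3 with edgeR 4.0.16 and its companion limma 3.58.1, after filterByExpr and TMM scaling, by the robust quasi-likelihood F test, without a replicate term. P-values were adjusted by Benjamini-Hochberg over 14985 genes, and genes under 0.05 were called, which is what rose, fell, higher and lower mean in the text. The method was also run on simulated counts, with the same spread set for all genes, as a check of the code. That run does not bear on changes as small as those described here. CPM use the TMM-scaled library size, and standard errors come from the fold change and its F statistic. The alternatives were DESeq2 1.42.0, limma's voom, other scaling, filters and designs, and leaving libraries out. No library pair of a group differed by less than counting noise.

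The 10 genes, the related lists and the tests were chosen with earlier results of these data known. Named from the other lists were up to 3 genes with the smallest adjusted p in KO against WT untreated and up to 3 in KO acetate against KO untreated, a fixed set (Atf4, Atf5, Ddit3, Hspa8, Hspa5, Hsp90ab1, Hsp90b1, Afg3l2, Clpb, Htra2, Opa1, Dele1), and the 5 nearest genes of the 2 members with the widest range. The motifs, the ratios, and the runs of the alternatives on the related lists were added after the data had been seen. Start-site windows came from RefSeq for 9 of the 10 genes, and gene positions and lengths from GENCODE release 21 (GRCm38), which may not be the authors' annotation.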

Additional observations from a re-analysis of the deposited data

Results flagged for a closer look

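Oma1 in WT untreated 3 was at 14.4 CPM, with the nearest of the other 3 libraries at 15.8 CPM, a gap of 0.89 of the group's range. Oma1 in KO untreated 2 was at 29.2 CPM, with the nearest library at 23.1 CPM, a gap of 0.925 of the range. Both gaps pass Dixon's critical value for 4 libraries. They are 2 of 40 groups checked (10 genes in 4 groups), where chance marks about 1 in 20. KO untreated 2 also had the highest Lonp1 and Clpx of its group and is among the libraries with the abundant unnamed gene, and the part of that in these levels was not tested.

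The acetate difference was lower in KO than in WT cells for Oma1 (interaction -0.49, adjusted p = 0.0261 by edgeR) and for Clpx (-0.33, adjusted p = 0.0333).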

How the results depend on the processing

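Of 1090 recomputed fold changes of the 10 genes, 1010 kept direction and call, 54 lost the call, 7 gained it and 19 reversed. Of 109 recomputed counts of called genes among the 10, 82 stayed within 1.5 times. Leaving out the 4 libraries with the abundant unnamed gene gave 5 called (against 8) in KO against WT untreated, 0 (against 2) in WT acetate against WT untreated and 0 (against 2) in the interaction. Without scaling these last 2 were 1 and 0. With only the unnamed gene removed and all libraries kept, the counts stayed at 8, 2 and 2. Leaving out 1 library at a time gave 5 to 8 in KO against WT untreated, 0 throughout in KO acetate against WT acetate, 0 to 1 in WT acetate against WT untreated, 6 to 7 in KO acetate against KO untreated, 1 to 2 in KO acetate against WT untreated and 0 to 2 in the interaction. The cause was not tested.

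None of the reversed values was called either way. They were, without scaling, Hspd1 (-0.01) and Dnaja3 (-0.00) in KO against WT untreated, Oma1 (0.01) in WT acetate against WT untreated and Dnaja3 (0.06) in KO acetate against KO untreated. With 1 library left out in turn the values that crossed 0 ran, in KO acetate against WT acetate, from -0.02 to 0.06 for Yme1l1 and from -0.06 to 0.02 for Clpx. In WT acetate against WT untreated they ran from -0.06 to 0.14 for Lonp1, from -0.12 to 0.02 for Oma1 and from -0.01 to 0.06 for Hspd1. In KO acetate against WT untreated they ran from -0.01 to 0.04 for Dnaja3 and from -0.01 to 0.07 for Clpx, and in the interaction from -0.01 to 0.04 for Dnaja3.

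Replicate numbers are shared by the groups. Deviations of same-numbered libraries correlated at 0.09, 0.16, 0.17 and 0.14 in KO acetate against KO untreated, where each library correlated best with its own number, a hint of pairing from the data and not from the design. In the other comparisons at least 1 pair was under 0.1 and at least 1 library correlated better with another number. The numbers were not treated as pairs, because the correlation was not over 0.1 in every pair. With the replicate block 8, 0, 3, 7, 2 and 2 of the 10 genes were called in the 6 comparisons in the order KO against WT untreated, KO against WT acetate, WT acetate against untreated, KO acetate against untreated, KO acetate against WT untreated and interaction. The block added calls of Hspd1 in KO acetate against KO untreated (0.18, adjusted p = 0.0341) and of Trap1 in WT acetate against WT untreated (-0.14, adjusted p = 0.045), and changed no other call of the 10 genes. Over all genes, KO against WT untreated called 5481, and 3361 without the 4 libraries. The interaction called 1785, and 1010 without them. KO against WT acetate called 150, and 78 without scaling, 771 by DESeq2, 408 with the block, 16 with only those groups fitted and 535 without the 4 libraries. Genes of low abundance such as Oma1 rest on fewer counts than the chaperones.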

Other observations

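Of 18 general mitochondrial genes 7 fell and none rose in KO against WT untreated (median log2 fold change -0.06). Over all genes 36.6% were called there, 18.0% higher and 18.6% lower. DESeq2 called 7 lower and 2 higher. Vdac1 and Vdac2, pores of the outer membrane, fell by 0.28 and 0.36, and Ppargc1b, a coactivator of mitochondrial biogenesis, fell from 4.96 ± 0.602 to 2.67 ± 0.255 CPM. With acetate in KO cells 4 rose and 4 fell (median 0.07), where 22.1% of all genes rose and 21.6% fell. Without scaling 7 rose and none fell, and the median over all genes moved from -0.01 to 0.09. Without the 4 libraries with the abundant unnamed gene 4 fell and none rose in KO against WT untreated.

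TRiC, the cytosolic chaperonin and counterpart of HSP60, had none of its 8 genes called in KO against WT untreated by edgeR (median -0.00), with 2 called by DESeq2, 1 in each direction. By edgeR 36.6% of all genes were called in that comparison. With acetate in KO cells 3 rose and none fell (median 0.12), against 22.1% and 21.6% of all genes. Among the 3 was Tcp1, which went from 616 ± 20.4 to 720.3 ± 38.5 CPM. With only those groups fitted 1 was called, and without the libraries with the abundant unnamed gene 0 were called.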
